A study of Capra hircus with 4 samples.

Results

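Pancreatic lipase (PNLIP), pancreatic lipase-related protein 2 (PNLIPRP2), carboxyl ester lipase (CEL), group IB phospholipase A2 (PLA2G1B) and colipase (CLPS) are fat-digesting enzymes of pancreatic juice and their cofactor. They were chosen by symbol from the goat gene table, and all 5 were found among its 27137 genes. The study profiled single cells from the pancreas of female Liuyang black goats of a ruminating group aged 6 months and a non-ruminating group aged 10 days, with 2 animals at each age. Enzyme-dissociated pancreas of these twins, which came from commercial farms, was cleared of red and dead cells before droplet capture with the 10x Genomics 3′ kit. The merged count matrix marks its 4 libraries only by a number at the end of each cell barcode. Nothing used here ties a library number to an animal or an age, so no age comparison was made, no library was treated as a replicate, and no test was run. Values are given for libraries 1 to 4 in that order.

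Acinar cells of the exocrine pancreas make digestive enzymes, store them in zymogen granules and release them into the duct after a meal. Pancreatic lipase splits dietary triglycerides at the surface of fat droplets, but bile salts push it off that surface unless colipase anchors it there. PNLIPRP2 is a close relative that also splits the galactolipids of plant membranes, and in mice and rats it is the lipase of the suckling pancreas, ahead of PNLIP, which becomes abundant around weaning. CEL is the bile salt-stimulated lipase, which also splits cholesteryl esters and is secreted in the milk of many species. PLA2G1B is released as a proenzyme that trypsin activates, and it cleaves a fatty acid from phospholipids.

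Cells were called from the barcodes of each library, clustered without the 5 genes, and named by markers. This left 13247 cells in 36 clusters, with 2842, 3323, 3998 and 3084 cells per library and library medians of 6188 to 8932 unique molecular identifiers (UMIs, one for each captured RNA molecule) per cell. The 6 clusters numbered 2, 11, 13, 14, 24 and 32 were acinar-like, with 11 to 16 of 18 matched acinar markers raised in each. They held 371, 1281, 846 and 70 cells, whose median UMI counts were 7556, 19566, 17725 and 11370. Clusters 11 and 14 had 2 hepatocyte markers among their 10 leading genes, against 1 and 0 acinar markers, so values that rest on them are also given by cluster number. Pairs of libraries shared 0 to 6 cell barcodes. A level is the summed UMI count of a gene in a class of cells per 1000000 UMIs of that class, written as CPM, and its 95% exact Poisson interval covers counting error only. Because such counts are not corrected for how well each transcript is captured, a gene is compared only with itself.

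Together the 5 genes made up 12.4%, 4.21%, 5.26% and 12.5% of all UMIs of acinar-like cells in libraries 1 to 4, against 0.249%, 0.201%, 0.148% and 0.0710% of all UMIs of the other cells. The acinar-like share was thus higher in libraries 1 and 4 than in libraries 2 and 3. The libraries also differed in which of the genes were abundant: PNLIP and PLA2G1B were high in libraries 1 and 4, PNLIPRP2 was high in libraries 2 and 3, CLPS differed by a few fold and CEL by less. The plot of summed levels by library shows these patterns for each gene.

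**Figure D1:**
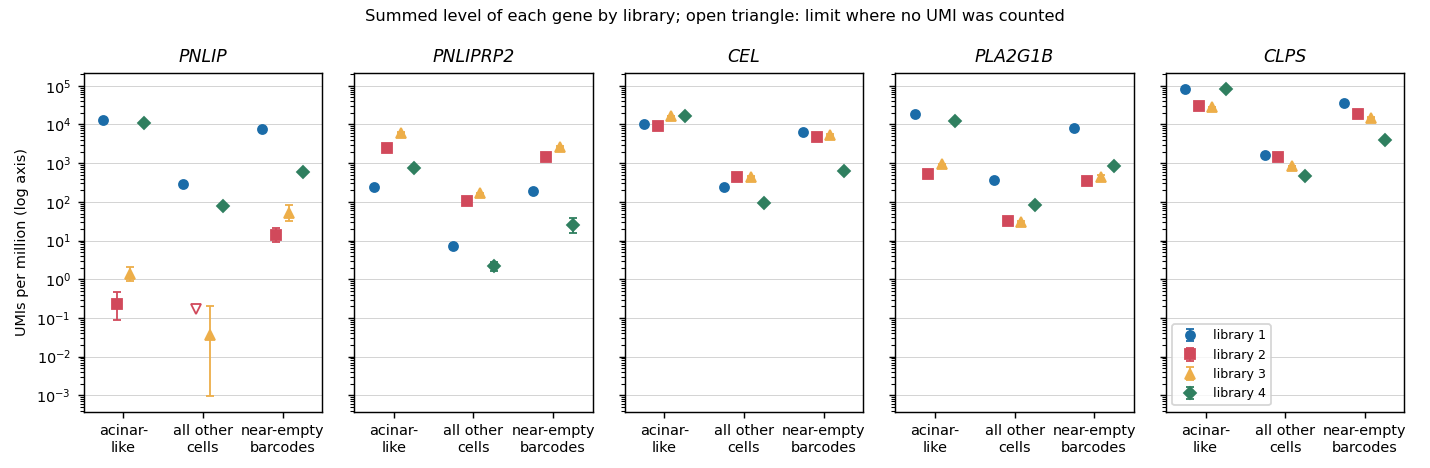
CPM (log axis) of each gene in acinar-like cells, all other cells and near-empty barcodes of 10 to 100 UMIs, by library, with 95% Poisson intervals that are mostly smaller than the marks. An open triangle marks the limit of 3 counts where no UMI was counted, and PNLIP spans 0.224 to 13068 CPM in acinar-like cells.

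PNLIP, the main triglyceride lipase of the adult pancreas in most mammals, was present at 13068 CPM in acinar-like cells of library 1 and 10898 in those of library 4. In library 2 it had 7 UMIs among 31267939, or 0.224 CPM (0.0900 to 0.461), and in library 3 it had 25 UMIs, or 1.38 CPM (0.895 to 2.04). Libraries 1 and 4 were thus high, and libraries 2 and 3 were near 0 although their acinar-like cells were the most deeply sampled. All 371 acinar-like cells of library 1 and 64 of the 70 in library 4 carried a PNLIP UMI, against 117 of 252 and 87 of 793 immune-like cells of those libraries. In library 2, 3 of 1281 acinar-like cells did, and in library 3, 15 of 846 did. The share in library 3 was 1.77%, against 1 of its 3152 other cells (0.0317%), at medians of 17725 and 7252 UMIs per cell. With each cell thinned at random to 2000 UMIs, the shares were 0.236% (exact binomial interval 0.0286% to 0.851%) and 0 (upper bound 0.117%), and these intervals overlapped. Its summed level of 1.38 CPM lay above the 0.0374 CPM of all other cells, which rests on 1 UMI.

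PNLIPRP2 ran the other way. Its level in acinar-like cells was 248 CPM in library 1 and 771 in library 4, and it was 2452 in library 2 and 6174 in library 3. Library 3 was highest and library 1 lowest. The low level of library 1 was above that of its own immune-like cells: 75.2% of its acinar-like cells had a PNLIPRP2 UMI, against 3.17% of its immune-like cells, at medians of 7556 and 5892 UMIs per cell. After each cell was thinned to 2000 UMIs, those shares were 40.4% (exact binomial interval 35.4% to 45.6%) and 1.59% (0.434% to 4.01%). Near-empty barcodes of library 1 came closer, at 196 CPM of PNLIPRP2 against 248 in its acinar-like cells. Barcodes of 5 to 50 UMIs in that library were at 242 CPM, inside the acinar-like interval of 233 to 264. In libraries 2 and 3, 1280 of 1281 and 846 of 846 acinar-like cells had a PNLIPRP2 UMI.

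CEL was the steadiest of the lipases. Acinar-like cells had 10319, 9057, 16762 and 17026 CPM of CEL in libraries 1 to 4. Libraries 3 and 4 were the higher ones, which is not the split seen for PNLIP or PNLIPRP2. Every acinar-like cell in the data carried at least 1 CEL UMI, and the median cell had 1.06%, 0.849%, 1.66% and 1.56% of its UMIs from CEL. Set against 12 other acinar transcripts, CEL had 25.4, 23.5, 61.2 and 50.5 UMIs per 1000 of theirs, and libraries 3 and 4 were again the higher ones. The sum of the 12 is not a fixed yardstick between libraries, because its make-up changed. LOC102176156 gave 8761189 of its 12042586 UMIs in library 2, and LOC102174148 gave 643548 of 1622603 in library 1.

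PLA2G1B followed PNLIP in which libraries were high, but stayed detectable in the others. Its acinar-like level was 18376, 518, 938 and 11944 CPM. Libraries 1 and 4 were high and libraries 2 and 3 low. Even so, 98.2% of acinar-like cells in library 2 and 98.9% in library 3 had a PLA2G1B UMI, against 11.7% and 15.0% of all other cells. In immune-like cells the shares were 3.23% and 12.2%, the first from 1 of 31 cells. Thinned to 2000 UMIs, the shares were 62.5% and 79.0% of acinar-like cells, against 4.11% and 4.22% of all other cells. Immune-like cells were then at 3.23% and 6.12%.

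CLPS, the cofactor that PNLIP needs in the presence of bile salts, was high in every library. Acinar-like cells had 81919, 30066, 28730 and 83912 CPM of CLPS, or 8.19%, 3.01%, 2.87% and 8.39% of their UMIs. Libraries 1 and 4 were again above libraries 2 and 3, as they were per 1000 UMIs of the 12 other acinar transcripts (202, 78.1, 105 and 249). That ratio has the limit given for CEL. CLPS ranked among the 10 leading genes of acinar-like cells in each library, at rank 2, 5, 6 and 2, which includes the libraries where PNLIP was near 0.

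Cells of one library also differed among themselves. In library 1 acinar-like cells had 0.571% to 2.5% of their UMIs from PNLIP and 4.02% to 13.6% from CLPS, as 5th and 95th percentiles. PLA2G1B ran from 1.08% to 2.92% there, against 0.0124% to 0.116% in library 2, so these ranges of library 1 and library 2 did not overlap. PNLIPRP2 ran from 0.279% to 0.986% in library 3 and from 0.0868% to 0.454% in library 2, and those overlapped. In library 4 PNLIPRP2 ran from 0 to 0.292% and PLA2G1B from 0.102% to 2.29%, the widest spread of PLA2G1B in a library. These ranges of library 4 span cells of unlike clusters. Its 6 acinar-like cells outside cluster 13 were at 3245 CPM of PNLIPRP2 and 757 of PLA2G1B. The 64 cells of cluster 13 were at 336 and 13912.

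The range over libraries sets these differences beside all other genes. For each of 11423 genes with at least 20 UMIs in the highest library, the highest over the lowest library was taken on the log2(CPM + 1) scale, and the median gene had a range of 1.61 (3.05-fold). PNLIP had a range of 13.38, PLA2G1B of 5.15 and PNLIPRP2 of 4.63, while CLPS had 1.55 and CEL 0.91. Thus 3 of 5 genes passed an 8-fold range, which 5.07% of all genes passed. PNLIP had the widest range of the 11423 genes. The next widest were LOC102174148 at 11.59 and LOC102176156 at 9.57. The first was high in acinar-like cells of libraries 1 and 4 (161034, 51.3, 251 and 96190 CPM). The second was high in those of libraries 2 and 3 (368, 280197, 155938 and 46101 CPM). In library 4 most UMIs of LOC102176156 lay in 6 cells outside cluster 13. Those cells held 11626, 6377, 1336, 1573, 17696 and 8624 of its 50034 UMIs. Without library 1 the PNLIPRP2 range was 3.00, just under the 8-fold line when unrounded. This near miss depends on the level of library 4, which was 771 CPM over all its 70 acinar-like cells. There 6 cells outside cluster 13 held 527 of 837 PNLIPRP2 UMIs, and cluster 13 alone was at 336 CPM. Relative to the median of all genes in each library, PNLIP came to 14.58, PLA2G1B to 6.34 and PNLIPRP2 to 3.19, the last close to the 8-fold line, while CLPS came to 2.95 and CEL to 2.00, and 1.43% of all genes passed 8-fold.

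**Figure D2:**
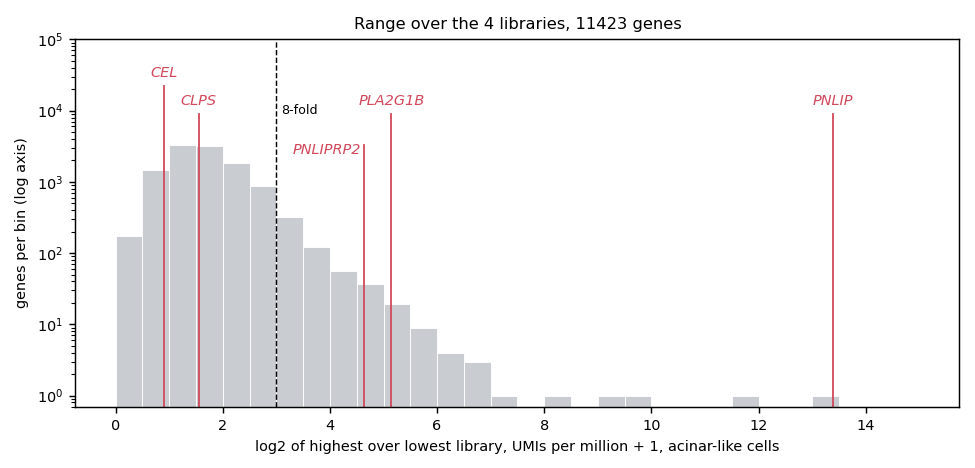
Distribution of the log2 range over the 4 libraries in acinar-like cells for 11423 genes (bars, log axis), with the 5 genes marked and the 8-fold line dashed. CEL and CLPS lie in the body of the distribution, PNLIPRP2 and PLA2G1B in its tail, and PNLIP at its far end with 13.38.

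The acinar-like cells of the libraries came from different clusters, and depth and hepatocyte markers differed between them too. Library 1 lay in cluster 13 (368 of 371 cells) and library 4 also (64 of 70), library 2 mostly in cluster 2 (985 of 1281), and library 3 in clusters 11 and 14 (450 and 297 of 846). By cluster number, PNLIP had 13086 and 12815 CPM in cluster 13 of libraries 1 and 4. It had 0.288 in cluster 2 of library 2, 1.12 in cluster 11 of library 3 and 1.82 in cluster 14 of library 3. PNLIPRP2 had 246 and 336 CPM in cluster 13 of libraries 1 and 4, against 2487 in cluster 2 of library 2 and 6216 in cluster 11 of library 3. In cluster 14 of library 3 it had 6166. Clusters 11 and 14 of library 3 had 17047 and 16767 CPM of CEL and 991 and 893 of PLA2G1B. Their CLPS levels were 30612 and 26346. With 1 leading cluster per library, 3 of 5 genes again passed 8-fold, beside 6.61% of all genes. The 7 matched hepatocyte markers summed to 150, 530, 582 and 264 CPM in acinar-like cells, led by ALB at 134, 278, 476 and 193. FGB was at 0 in libraries 1, 2 and 4, and APOA2 and FGA were at 0 in libraries 1 and 4. In all other cells the same 7 markers summed to more in each library, 699, 2124, 1637 and 392 CPM. ALB was lower there, at 6.74, 11.3, 11.6 and 0.539. In cluster 13 of library 4 alone, ALB was at 26.0 CPM. The part of these markers and of depth in the ranges was not tested.

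Library 4 held cells of both patterns. Its 64 cells of cluster 13 had 12815 CPM of PNLIP, and the other 6 cells, 5 in cluster 2 and 1 in cluster 11, had 1 PNLIP UMI among 162399. Those 6 cells carried 106, 77, 7, 4, 205 and 128 PNLIPRP2 UMIs. Their PLA2G1B level was 757 CPM, against 13912 in the 64 cells, and their CLPS level was 33516, against 92780. They also held 1336 to 17696 UMIs of LOC102176156 each and 0 to 6 of LOC102174148. None of the 6 barcodes was called as a cell in another library. The 6 cells made up 527 of the 837 PNLIPRP2 UMIs of library 4, and without them its level was 336 CPM.

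**Figure D3:**
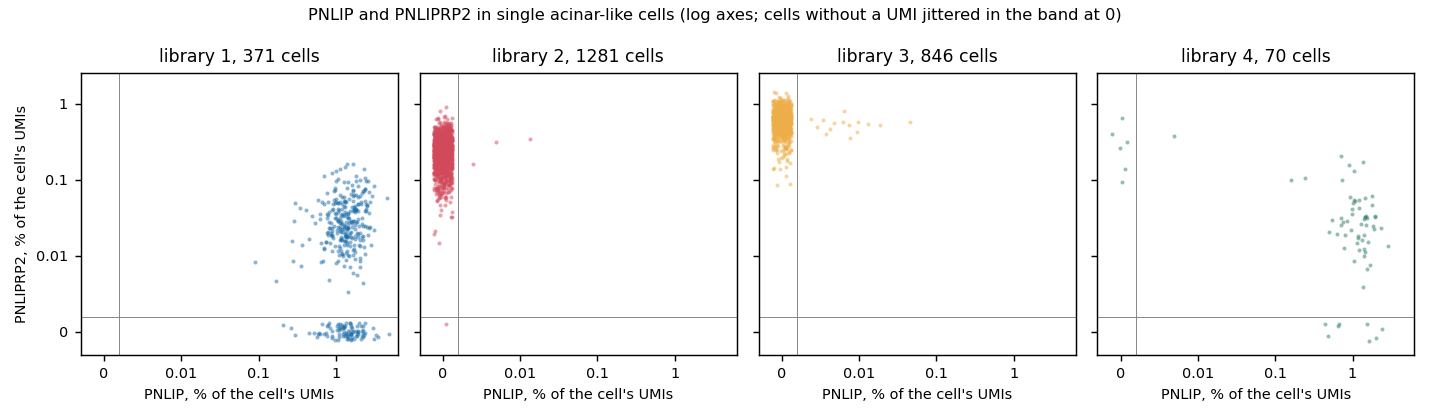
PNLIP (x) and PNLIPRP2 (y) as percent of each acinar-like cell's UMIs, by library, on log axes, with cells lacking a UMI jittered in the band at 0. Cells of library 1 lie to the right with PNLIP. Those of libraries 2 and 3 lie at the upper left with PNLIPRP2 and, in nearly all cells, no PNLIP. Library 4 has 64 cells with a PNLIP UMI, of which 63 are in cluster 13, and 6 without.

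Among single cells of one library, pairs of the genes were compared by Pearson correlation of log-normalized values, as a description over cells that share a library and its depth. In library 1 (371 cells) PNLIP and CEL varied together at r = 0.70, and each ran against CLPS, at -0.48 for PNLIP and -0.45 for CEL. Thinned to 2000 UMIs, these values were 0.63, -0.45 and -0.40. In library 4 (70 cells) PNLIP and PNLIPRP2 had r = -0.66 and PNLIP and PLA2G1B r = 0.80. Within the 64 cells of cluster 13 these came to -0.46 and 0.44, so the 6 cells of the other clusters carry part of each value. The negative relation of PNLIP and CLPS did not appear in library 4, where r was 0.49 over all cells and 0.12 within cluster 13.

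Where PNLIP was near 0, PNLIPRP2 went with CEL. Their correlation was 0.47 over the 1281 acinar-like cells of library 2 and 0.51 over the 846 of library 3. Thinned, it was 0.25 and 0.36, and within the leading cluster of each library it was 0.42 and 0.28. In library 1 it was 0.14. The other pairs in libraries 2 and 3 fell between -0.09 and 0.41 before thinning.

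Cells other than acinar-like ones held few UMIs of the 5 genes. Acinar-like cells were 13.1%, 38.5%, 21.2% and 2.27% of all cells, yet for each gene with more than 100 UMIs in a library they held 82.7% to 97.6% of the UMIs counted in cells. Against all other cells of the same library, the log2 ratio of CPM + 1 was at least 1 in every library for 4 of 5 genes, a rule that 0.63% of 13340 genes met. The median log2 ratio was 5.07 for PNLIPRP2 (4.50 to 7.93 over libraries), and the other genes lay close to it, CEL at 5.32 (4.37 to 7.48), PLA2G1B at 5.29 (4.0 to 7.19) and CLPS at 5.39 (4.39 to 7.53). The median over all genes was -1.64, and relative to it 4 of 5 genes were still called, beside 5.43% of all genes. PNLIP had ratios of 5.51, 0.29, 1.20 and 7.10 and too few UMIs in library 2 to enter. Its ratio in library 3 sets 25 UMIs against 1 and is set largely by the pseudocount of 1 CPM.

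In all other cells PNLIP was at 286 CPM in library 1 and 78.7 in library 4. It had 0 UMIs in library 2, which allows up to 0.168 CPM, and 1 UMI in library 3. PNLIPRP2 was at 7.16, 107, 165 and 2.16, CEL at 239, 436, 449 and 94.6, PLA2G1B at 357, 31.3, 30.4 and 80.9, and CLPS at 1603, 1435, 833 and 454 CPM. The libraries that were high for PNLIP, PNLIPRP2 and PLA2G1B in acinar-like cells were thus the higher ones in other cells too.

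Near-empty barcodes of 10 to 100 UMIs, which hold mostly free RNA, gave the background measured the same way. They held 7544, 14.2, 52.7 and 593 CPM of PNLIP in libraries 1 to 4, and 196, 1472, 2590 and 25.3 CPM of PNLIPRP2. The PNLIP values of libraries 2 and 3 rest on 25 and 18 UMIs and were above those of the libraries' own acinar-like cells. CLPS stood at 36431, 18792, 14981 and 4034, CEL at 6416, 4708, 5297 and 628, and PLA2G1B at 8148, 356, 433 and 864. Library 4, with the fewest acinar-like cells, had the lowest near-empty levels of CLPS and CEL.

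Set against the 12 other acinar transcripts, here called companions, most of the genes kept close to the acinar ratio outside acinar-like cells. For every 1000 companion UMIs, PNLIP had 32.2 UMIs in acinar-like cells of library 1, and 37.9 in ductal-like, 35.5 in endocrine-like, 37.0 in stellate-like, 34.1 in endothelial-like and 31.8 in immune-like cells. CLPS in library 2 had 78.1 per 1000 companions in acinar-like cells, and 69.3, 73.3, 87.3, 106 and 92.3 in the same order of classes. PNLIPRP2 in library 3 had 22.5 in acinar-like cells, and 21.5, 19.1, 24, 27.2 and 24. PNLIPRP2 in library 4 was lower outside acinar-like cells, at 0.783 to 1.68 in endocrine-like, stellate-like, endothelial-like and immune-like cells, against 2.29 in acinar-like cells, of which the 6 cells outside cluster 13 held most PNLIPRP2 UMIs. CLPS in the delta group of library 1 was higher, at 475, against 202 in acinar-like cells. PNLIPRP2 in immune-like cells of library 1 was also higher, at 1.82 from 25 UMIs, against 0.61 in acinar-like cells. In near-empty barcodes PNLIP had 0.0829 in library 2 and 0.427 in library 3, against 0.000581 and 0.00505 in acinar-like cells. The 12 companions made up 27.4% to 40.6% of acinar-like UMIs, and 0.364% to 6.08% of the UMIs of ductal-like, endocrine-like, stellate-like, endothelial-like and immune-like cells in libraries 1 to 3.

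**Figure D4:**
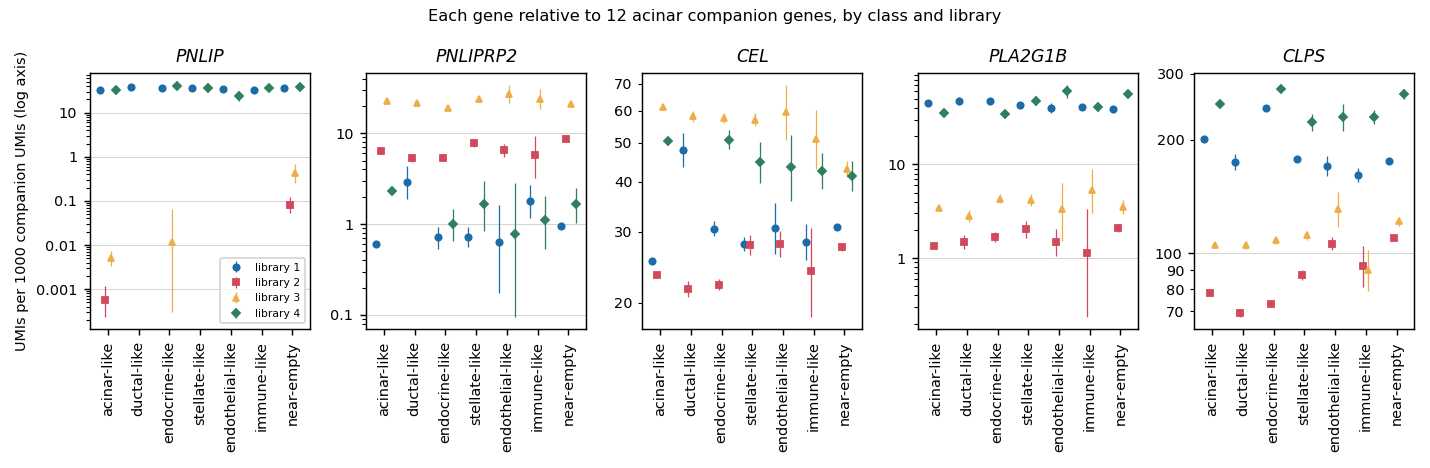
UMIs of each gene per 1000 UMIs of 12 acinar companion genes (log axis, scales differ between panels) by cell class and in near-empty barcodes, with 95% Poisson intervals; classes with no UMI and the 11 ductal-like cells of library 4 are not drawn. Within a library most classes lie near the acinar-like value. Exceptions above it include CEL and PNLIPRP2 in ductal-like cells of library 1 and PNLIPRP2 in immune-like cells of library 1. PNLIP in near-empty barcodes of libraries 2 and 3 also lies far above it.

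The order of classes was led by acinar-like cells for every gene and library, but in library 2 the PNLIP interval of acinar-like cells overlapped those of classes with 0 UMIs. Ductal-like cells came next for all 5 genes in library 1 and for PNLIPRP2, CEL, PLA2G1B and CLPS in libraries 2 and 3. In library 4 endothelial-like cells were next, but 1 of their 60 cells held 96.7% of their PNLIP, 96.4% of their CEL, 96.1% of their PLA2G1B and 93.5% of their CLPS UMIs, and their PNLIPRP2 level rests on 2 UMIs. Without cells of at least 5% UMIs from the companions, PNLIP in library 4 was at 4.71 CPM in endothelial-like cells, 22.4 in endocrine-like and 24.3 in immune-like cells, and CEL was at 9.43, 22.0 and 26.3. Lower neighbours often overlapped: in library 1 the PNLIP interval of endothelial-like cells (221 CPM) overlapped those of immune-like (231) and endocrine-like cells (196). The intervals of immune-like and endocrine-like cells did not overlap each other. For CLPS in library 1 the order was ductal-like (2826), stellate-like (2201), endocrine-like (1341), immune-like (1174) and endothelial-like cells (1103), with the last pair overlapping.

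Duct cells line the channels that carry the enzymes away and are the epithelial neighbours of acinar cells. Ductal-like cells numbered 58, 136 and 196 in libraries 1 to 3, and library 4 had 11, too few to enter. Most lay in cluster 28 in library 1 and in cluster 16 in libraries 2 and 3, and cluster 16 had 1 Schwann cell marker, SOX10, and no ductal marker among its 10 leading genes. Against them, 4 of 5 genes were at least 2-fold higher in acinar-like cells in each of the 3 libraries, a rule that 1.59% of 5088 genes met. The median log2 ratio was 2.91 for PNLIPRP2, 3.01 for CEL, 3.2 for PLA2G1B and 2.94 for CLPS, beside -1.64 for all genes, and the plot of log2 ratios shows each library. PNLIP had 4.41, 0.29 and 1.25. In library 3 PNLIP had 25 UMIs in acinar-like cells and 0 in ductal-like cells, whose upper limit of 2.07 CPM is above the acinar-like level of 1.38 CPM, so its ratio there is set by the pseudocount.

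**Figure D5:**
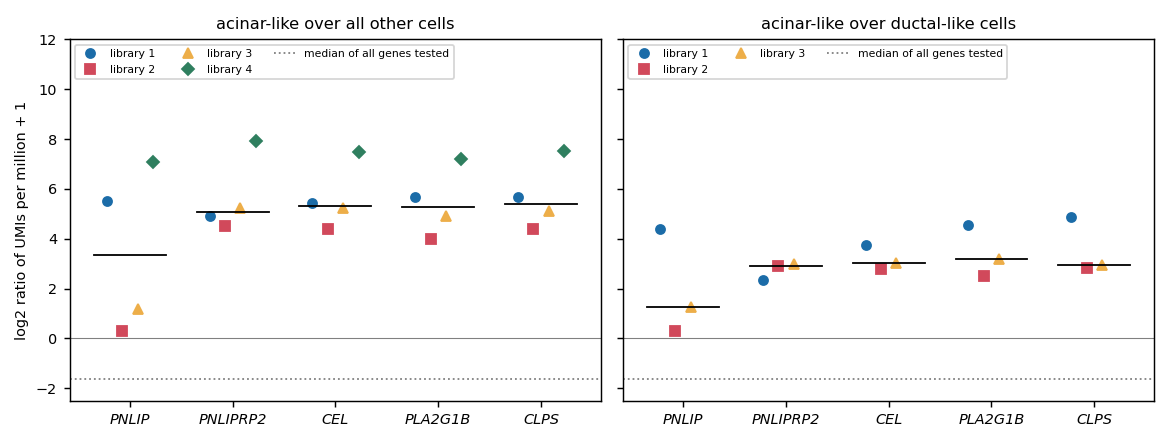
log2 ratio of CPM + 1 in acinar-like over all other cells (left) and over ductal-like cells (right) for each library, with the median over libraries as a black line and the median of all genes tested dotted at -1.64. PNLIP in libraries 2 and 3 lies at 0.29 to 1.25, and the other 4 genes lie above 2 throughout.

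In libraries 2 and 3 a minority of cells carried most of the ductal-like signal. Ductal-like cells with at least 5% of their UMIs from the companions numbered 2 of 58, 20 of 136 and 17 of 196. In library 2 they held 88.8% of the class's PNLIPRP2 UMIs and 89.5% of its CLPS UMIs, and in library 3 they held 89.3% and 90.8%. In library 1 the 2 cells held 0% of PNLIPRP2, 19.8% of PNLIP, 21.6% of CEL, 30.1% of PLA2G1B and 27.3% of CLPS UMIs. Without these cells the median log2 ratio was 5.65 for PNLIPRP2, 5.68 for CEL, 5.04 for PLA2G1B and 5.69 for CLPS. By cluster number, cluster 16 had 4501 and 4105 CPM of CLPS in libraries 2 and 3. Cluster 28 had 1764 and 232 in the same libraries, from 12 and 15 cells, and 2875 in library 1, from 56 cells.

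Ductal-like cells of library 1 departed from the acinar ratio for CEL and PNLIPRP2. CEL had 47.9 UMIs per 1000 companion UMIs there, against 25.4 in acinar-like cells, and PNLIPRP2 had 2.94, against 0.61. Of the 408 CEL UMIs, 2 cells of 49964 and 54907 UMIs held 133 and 116, and the median ductal-like cell had none. The PNLIPRP2 value rests on 25 UMIs in 5 cells, and 1 cell of 21121 UMIs held 16 of them with 0 PNLIP UMIs, 2 CEL UMIs and 1 CLPS UMI.

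Endocrine-like cells, the hormone cells of the islets, showed the same dependence on a few cells. The alpha group of library 2 had 8688 CPM of CLPS, and 397 without 20 of its 100 cells. The alpha group of library 3 had 4174, and 402 without 4 of 116 cells. The delta group of library 1 had 9014, and 352 without 9 of 76 cells. In each case the cells left out had at least 5% companion UMIs. The part of doublets in these cells was not tested, and the doublet caller marked 48, 3, 109 and 3 cells in libraries 1 to 4.

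PLA2G1B was set beside CEL in 2 endocrine groups, a comparison chosen after the values were seen. With cells of at least 5% companion UMIs left out, the endocrine-like clusters outside the beta, alpha and delta groups, of which the larger one was led by MSMB and the islet hormone PPY, had 126, 39.7, 36.0 and 84.5 CPM of PLA2G1B. The beta group had 79.3, 6.81, 17.6 and 22.5. For PLA2G1B the first group was higher in 4 of 4 libraries. CEL in the same cells was 57.6, 125, 169 and 28.4 CPM, against 68.3, 119, 185 and 21.4 in the beta group, and the first group was higher in 2 of 4 libraries. No test of this difference was made. Thinned to 2000 UMIs with all cells kept, a PLA2G1B UMI was found in 20.2%, 9.09%, 7.37% and 13.3% of the first group, against 19.7%, 1.42%, 3.70% and 5.41% of the beta group. The intervals of these shares overlapped in libraries 1, 3 and 4.

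The gene patterns most like each of the 5 were taken over 25 sums of a class in a library, as a description over points that share libraries. PNLIP was most like LOC102174148 (r = 0.96) and LOC102178719 (0.89), and CELA1, a pancreatic elastase, came at rank 5 (0.82). PNLIPRP2 was most like LOC102168735 (0.97), DMGDH (0.95), LOC102176156 (0.92), SERPINI2 (0.90), a pancreatic serpin, and DPEP1 (0.90). CEL was most like SYCN (0.99), the granule protein syncollin, then LOC102183207 (0.99), PDIA2 (0.98), a pancreatic protein disulfide isomerase, and PRSS2 (0.98), a trypsinogen. PLA2G1B was most like ZG16 (0.98), a granule lectin, and CELA1 (0.98), DNASE1 (0.97), the secreted DNase, and CTRC (0.94), chymotrypsin C. CLPS was most like LOC102188098 (0.99) and SYCN (0.98), with CEL at rank 5 (0.96). PNLIP and PNLIPRP2 had r = -0.34 over these sums, and PNLIP and PLA2G1B had 0.78.

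Within acinar-like cells, PNLIP could be followed in libraries 1 and 4, where its closest genes by mean r were CPB1 (0.63), a procarboxypeptidase, DNASE1 (0.60), ZG16 (0.58) and CEL (0.57). CEL was closest to LOC102183207 (0.65 over 4 libraries) and to GP2 (0.49), the main membrane glycoprotein of zymogen granules. PLA2G1B and CLPS had values up to 0.35 and 0.34, and no gene reached 0.30 with PNLIPRP2.

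PNLIP and PNLIPRP2 lie near each other on the goat genome, with 1 gene between them. In the RefSeq annotation of the ARS1.2 assembly, PNLIPRP2, LOC102189732, PNLIP and PNLIPRP3 follow in that order, and CLPS lies next to CLPSL2, a colipase-like gene. The neighbours, chosen for their position, were nearly undetected in acinar-like cells: LOC102189732 had 1 UMI, in library 2, PNLIPRP3 had 0 in all 4 libraries, and CLPSL2 had 2, both in library 2. CEL lies between GTF3C5 and RALGDS, and PLA2G1B between MSI1 and SIRT4, so none of the 5 genes directly adjoins another.

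Lists of other lipid genes were then read by the same rules. Of 16 matched secreted and gastrointestinal lipid hydrolases outside the 5, 5 had enough UMIs against all other cells, none was higher and 3 were lower, at a background of 51.3% of all genes lower. LPL, the lipoprotein lipase of capillary walls, had 10.8, 11, 13.5 and 0.921 CPM in acinar-like cells, against 23.8, 157, 106 and 29.6 in other cells. LCAT and SMPD1 were the other genes called lower. LIPC, hepatic lipase, had 0.5, 1.34, 11.2 and 0.921 in acinar-like cells and was the one gene of this list past an 8-fold range, with 203 UMIs in library 3. PLB1, a phospholipase of the intestinal brush border, had 1, 40, 69 and 0 UMIs in acinar-like cells. PLA2G12A, a secreted phospholipase A2, had 33, 538, 375 and 10 UMIs and was not called. PNLIPRP3, PLA2G2A, LIPG, LIPI, LIPM and ENPP7 had 0 UMIs in acinar-like cells of all 4 libraries.

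Of the 16 matched lipases that act inside cells, 14 had enough UMIs, none was higher and 6 were lower in acinar-like than in other cells. Over all genes, 51.3% were lower and 0.63% higher by the same rule, so these counts set neither this list nor the next apart as lower. Among those lower were the lysosomal acid lipase LIPA, at a median log2 ratio of -3.12, and the cytosolic phospholipase PLA2G4A, at -3.54. PNPLA2, the adipose triglyceride lipase, had -1.40 and was not called. None of 11 passed an 8-fold range over libraries, beside 5.07% of all genes. Of 22 matched genes of fatty acid and sterol uptake, binding and esterification, 14 had enough UMIs, none was higher and 5 were lower, with APOA1 at -4.16 and ACSL5 at -4.23.

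Against ductal-like cells, where 61.4% of genes were lower, the hydrolase list had 1 of 3 genes lower, LIPH (-4.59), a phosphatidic acid-specific phospholipase. The uptake list had 3 of 4 lower. These were APOA1 (-7.41), FABP3 (-6.59) and ACSL4 (-1.59), and APOA1 stood at 18.0, 73.1 and 114 CPM in acinar-like cells, against 16468, 12639 and 12426 in ductal-like cells. Of the lipases inside cells, 1 of 2 was lower, PNPLA2 (-1.24).

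A wider list of 24 matched acinar genes, which holds the 12 companions, was read last. Many of these genes also served as markers to name the clusters, so their direction is no independent result. Of the 20 with enough UMIs, 18 were higher in acinar-like than in all other cells and none was lower, and the 20 had a median log2 ratio of 4.88. PRSS2 had 5.55 and SYCN 5.44. Against ductal-like cells 16 of 20 were higher and 1 was lower, the nuclear receptor NR5A2 (-1.82). Of 23 genes of this list, 8 passed an 8-fold range over libraries: LOC102174148, LOC102176156, CYM, CELA1, DNASE1, ZG16, CTRC and CPB1. CELA1, DNASE1, ZG16, CTRC and CPB1 were high in libraries 1 and 4 like PNLIP and PLA2G1B, with CELA1 at 50114, 887, 1292 and 37222 CPM. CYM, chymosin, had 0, 362, 562 and 3.69 and was high in libraries 2 and 3 like PNLIPRP2. SERPINI2, PRSS2 and SYCN differed by 0.56, 0.52 and 0.79 on the log2 scale, as little as CEL.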

How the data were processed

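The deposited matrix holds raw UMI counts per gene and barcode, whole numbers made by the authors, with gene IDs and symbols beside it. Per the file headers the software was Cell Ranger 5.0.1, whereas version 3.1.0, with Seurat 3.1.1, stands in the submitters' processing notes. The annotation build is not given in the sources used here. The matrix lists 27179520 barcodes, and library totals were 43297855, 82817057, 65937591 and 55223412 UMIs. Cells had at least 500 genes and at least the 99th percentile UMI count, divided by 10, among the 8000 largest barcodes of their library. Doublets were removed with Scrublet in scanpy 1.11.5, which marked few cells in libraries 2 and 4. Counts were scaled to 10000 per cell, 2000 variable genes without the 5 genes and the listed genes gave 30 components, and Leiden clusters used 15 neighbours and resolution 1. A cluster was named from at least 3 raised markers, and 626 cells in 5 clusters stayed unnamed. Names ending in "-like" are rebuilt here, so shares may differ from the study's.

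Contrasts used libraries with at least 20 cells on each side and genes with at least 20 UMIs on the higher side in each library, a pseudocount of 1 CPM, and a log2 ratio of at least 1 in every library. The 12 companions were LOC102174148, LOC102176156, CELA1, CPB1, CTRC, PRSS2, ZG16, DNASE1, CYM, SERPINI2, SYCN and SPINK1. Genes named from the lists passed the call rule or were detected secreted hydrolases, with up to 12 by size and up to 5 by likeness. The call rule was tested on simulated counts. The 5 genes and the lists were chosen with earlier results of these data known. Of 102 listed genes 83 were matched, as were 250 of 280 markers, and 27103 gene IDs were found in the RefSeq table. The edgeR comparison of ages was not run, since no library could be tied to an animal. Protein and promoter sequences were not used here.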

Additional observations from a re-analysis of the deposited data

How the results depend on the processing

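No paired analysis was possible because no library could be tied to an animal or an age. The count of genes higher in acinar-like cells was 4 in both contrasts and 5 without library 2, and the count past an 8-fold range was 3, or 2 without library 1, under the cell, doublet, clustering, pseudocount, filter and scaling settings tried and when a library was left out. The settings that leave out other cells with at least 5% companion UMIs, that leave out clusters 11 and 14, or that keep 1 leading cluster per library were chosen after seeing the data and gave the same counts. The background moved more: relative to the median of all genes, 5.43% and 10.7% of genes were called higher against all other and ductal-like cells, and with the 10 leading acinar genes left out of the total 11.7% passed an 8-fold range. A pseudocount of 10 brought that share to 0.376% and the share higher than in ductal-like cells to 0.865%. The 8-fold share was 1.43% relative to the median, 3.31% with no minimum count, and 3.01%, 2.26% and 3.38% without libraries 1, 3 and 4. Without the 10 leading genes, 1.94% and 3.97% of genes were higher than in all other and ductal-like cells, and with no minimum count 0.568% were higher than in ductal-like cells. No log2 ratio of a called gene changed direction under any setting tried. Some correlations between pairs of genes did change sign. For PLA2G1B and CLPS in library 4, r was 0.23 over all acinar-like cells and -0.30 within cluster 13. Single values, which also took in levels and these correlations, were held to bounds of different kinds. The bound was the standard deviation over libraries for ratios, a log2 difference of 1 for ranges and the Poisson interval for levels. For correlations it was a 95% interval that counts cells as independent. By these bounds, 221 values stayed within and 83 went beyond. Of these, PNLIP's range was 10.32 with the larger pseudocount and 14.58 relative to the median, and CLPS against all other cells was 6.81 without cells of at least 5% companion UMIs. In barcodes of 5 to 50 UMIs, PNLIP stood at 6385, 245, 316 and 400 CPM. The PNLIP call without library 2 rests on 25 UMIs in library 3, where the pseudocount sets the ratio, and with a pseudocount of 10 PNLIP's median against ductal-like cells was 0.19.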
